A study of Homo sapiens with 2 samples.

Results

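Cyclins, cyclin-dependent kinases (CDKs) and CDK inhibitors were examined as RNA targets of RBM47, an RNA-binding protein. The set holds 10 genes, namely CCND1, CCND2, CCND3, CCNE2, CCNB1, CDK6, CDK4, CDK1, CDKN1A and CDKN1B. Binding sites were assigned to them by the gene symbol in the deposited list of clusters, which are stretches of the genome covered by overlapping unique reads (tags). Of the 10 genes, 8 had a cluster and CDK4 and CCNE2 had none. Together the 8 genes held 156 of 233546 clusters. The whole list named 7712 genes.

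Both libraries belong to 1 group. The cells, MDA231-BrM2a, were a non-clonal, brain metastatic line that stems from MDA-MB-231, an established line of breast cancer. They carried Flag-tagged wild-type RBM47 under a promoter switched on by doxycycline, which was given at 1 ng/ml over 3 days. In HITS-CLIP, RNA crosslinked to the tagged protein by ultraviolet light is pulled down and sequenced. The protein was introduced, and no control pull-down and no RNA-seq are analysed here, so tags depend on the abundance of a transcript as well as on its binding, and the 2 cannot be told apart.

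Cyclins are the regulatory partners that switch on CDKs. D-type cyclins with CDK4 or CDK6 act early in the cell cycle by phosphorylating the retinoblastoma protein, E-type cyclins act at the entry into DNA synthesis, and cyclin B with CDK1 drives mitosis. The inhibitors p21 (CDKN1A) and p27 (CDKN1B) bind cyclin-CDK complexes and restrain them. Many of these mRNAs are short-lived, and their 3'UTRs are known places of control by RNA-binding proteins and microRNAs.

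Over all clusters, 999047 tags came from replicate 1 and 3489697 from replicate 2, a ratio of 3.49. Every cluster in the list had at least 5 tags in total and at least 1 tag in each replicate. A gene without a cluster is therefore one that did not reach these minimums, and a lack of binding does not follow. Of 18922 protein-coding genes with a reference transcript, 37.7% had a cluster in the list. The reference transcripts are MANE Select models from GENCODE, and only their lengths were used.

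CDK6, a kinase partner of D-type cyclins, held most of the tags of the set. In clusters of at least 10 tags the 10 genes had 6804 tags. CDK6 had 4905 of them or 72.1%, and CCND1, the D-type cyclin most studied in breast cancer, had 1135 or 16.7%. CCND2 followed with 272 tags, CDKN1B with 199, CDKN1A with 148, CDK1 with 108 and CCND3 with 37. The single CCNB1 cluster, with 6 tags, was below the minimum.

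More than 100 tags, the limit by which the study defined its strongest targets, were found in 6 of the 8 genes with a cluster, against 39.9% of the 7712 genes with a cluster. The number was 2, CDK6 and CCND1, with a minimum of 30 tags per cluster, and also 2 in replicate 1 alone. The share over all genes is not given at these settings, so the lower counts cannot be set against other genes. The median was 173.5 tags over the 8 genes with a cluster and 49 tags over all 7712 genes. Of the 5600 genes with a cluster of at least 10 tags, CDK6 ranked 64, CCND1 563, CCND2 1939, CDKN1B 2285, CDKN1A 2624, CDK1 2973 and CCND3 4132. The genes of the set were thus spread over most of the range of bound transcripts, with CDK6 alone among the first 100. CDK1 was just inside the limit of 100 tags.

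**Figure D1:**
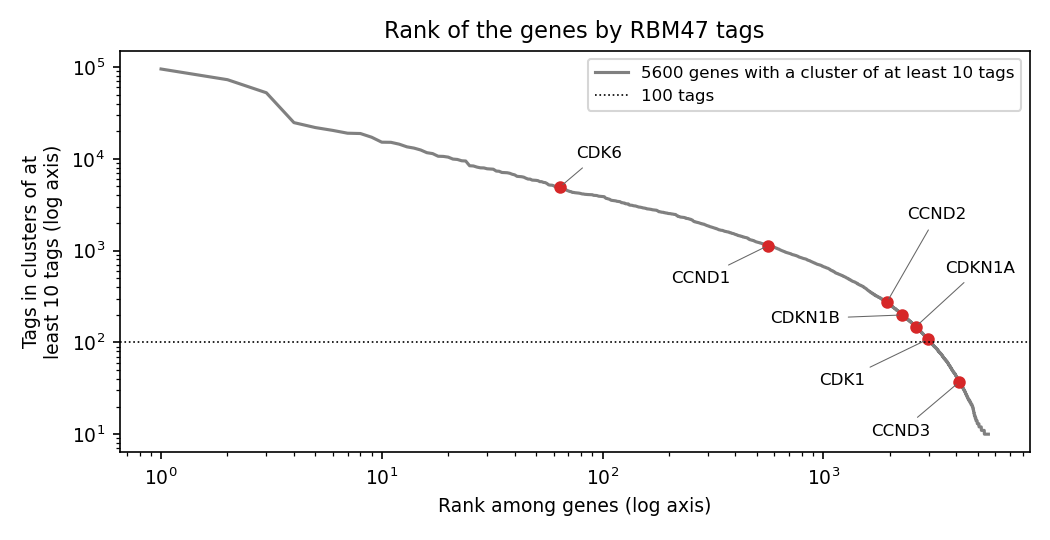
Genes with a cluster of at least 10 tags in order of their tags, both axes on a log scale. The red points mark the 7 genes of the set, from CDK6 with 4905 tags to CCND3 with 37 tags, and the dotted line marks 100 tags.

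To compare the libraries, all clusters of a gene were summed and scaled to 1000000 tags of the replicate, here called normalised tags. CDK6 had 1045 normalised tags in replicate 1 and 1174 in replicate 2, a mean of 1110 ± 91.4 (SD, n = 2). CCND1 had 219 and 268, a mean of 244 ± 34.7 (SD, n = 2). The libraries gave the same order for these 2 genes, and CDK6 exceeded CCND1 by 4.77-fold in replicate 1 and 4.38-fold in replicate 2.

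The other D-type cyclins, which share kinase partners with CCND1, were lower. CCND2 had 89.1 normalised tags in replicate 1 and 74.8 in replicate 2, and CCND3 had 12.01 and 12.6. The ranges of CCND1, CCND2 and CCND3 over the libraries did not overlap. The inhibitor CDKN1B had 50.05 and 49.3 normalised tags and CDKN1A had 32.0 and 39.3. The mitotic kinase CDK1 had 33.0 and 28.9. CDK1 and CDKN1A overlapped between the libraries and cannot be put in order. CCNB1, the mitotic partner of CDK1, had 1.001 and 1.43 normalised tags, which stand for 1 tag and 5 tags.

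**Figure D2:**
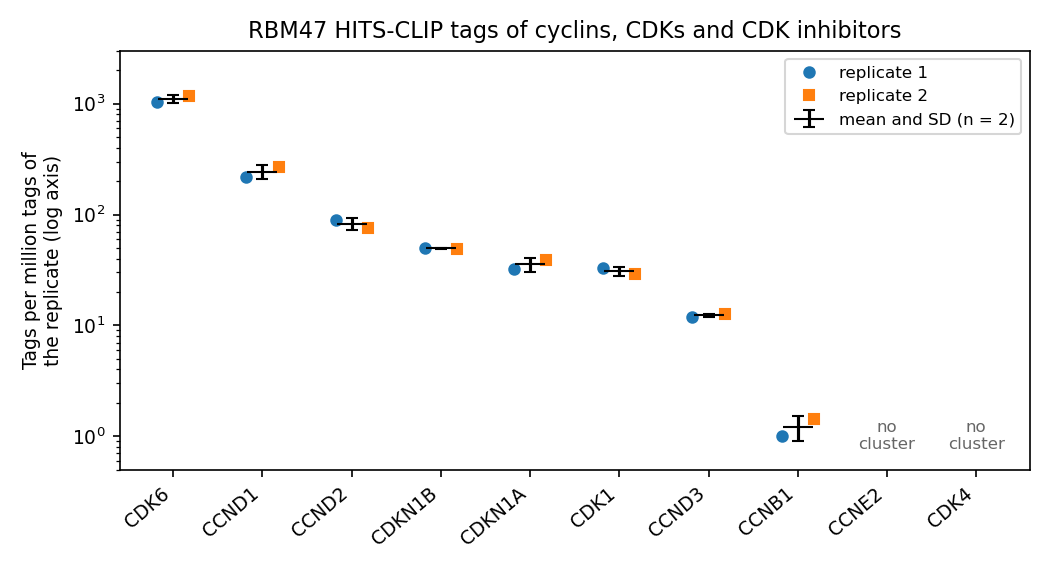
Normalised tags, per 1000000 tags of a replicate, in all clusters of each gene, on a log axis, with the value of each replicate and the mean and SD of n = 2. CDK6 lay highest at 1045 and 1174, CDKN1A and CDK1 overlapped, and CCNE2 and CDK4 had no cluster.

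Genes were compared per length, since these mRNAs differ greatly in size. Tags outside introns were divided by the length of the reference transcript. CDK6, with a transcript of 11663 nt, had 84.2 normalised tags per kb in replicate 1 and 95.4 in replicate 2. CCND1, with 4238 nt, had 51.7 and 63.3. The lead of CDK6 over CCND1 was smaller per kb than per gene, and the ranges of the 2 genes still did not overlap.

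CDKN1B had 20.8 normalised tags per kb in replicate 1 and 20.4 in replicate 2, below CCND1 in both. CDKN1A had 15.1 and 18.5, and CDK1 had 17.5 and 15.3, so that these neighbours again overlapped. CCND2, whose transcript has 6493 nt, fell behind them with 13.7 and 11.5. CCND3 had 2.96 and 4.38, and CCNB1 0.493 and 0.706. Per kb of transcript in clusters of at least 10 tags, CDK6 had 412 tags and CCND1 268, against a median of 10.9 tags over 7126 genes with a reference transcript. CDK6 ranked 216 and CCND1 388 of these 7126 genes, CDKN1B 1433 and CCND3 3075.

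Length of the 3'UTR went only in part with the order of the genes. The 3'UTR has 10219 nt in the reference transcript of CDK6, 5344 nt in CCND2 and 3192 nt in CCND1. CCNE2, with a 3'UTR of 1408 nt, had no cluster, while CDKN1A with 1532 nt and CDKN1B with 1342 nt had 148 and 199 tags. CDK4, the close relative of CDK6, has a 3'UTR of 798 nt, and CDK1 of 877 nt. Over the 7126 genes, Spearman's rho between 3'UTR length and tags in all clusters was 0.306. Genes are not independent replicates and all share the 2 libraries, so this is a description.

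The tags of the set lay almost wholly in 3'UTRs. In clusters of at least 10 tags, clusters labelled as 3'UTR alone held 94.9% ± 0.423 (SD, n = 2) of the tags of the set. Over all genes in the list the value was 47.1% ± 0.358 (SD, n = 2). Coding sequence (CDS) held 1.68% ± 0.412 (SD, n = 2) in the set and 10.1% ± 0.178 over all genes. Introns held 1.40% ± 0.220 in the set and 18.9% ± 0.539 over all genes. Clusters with more than 1 label held 2.03% ± 0.231 in the set and 16.8% ± 0.0452 over all genes. Any 3'UTR part of those clusters is left out of the 3'UTR shares above, which lowers the value over all genes more than that of the set. The share over all genes with such labels counted is not given. CDK6 weighs heavily in these sums, and without it the 3'UTR share of the other genes was 91.2% ± 1.80 (SD, n = 2).

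Counted by gene, all tags in clusters of at least 10 tags were in 3'UTR clusters in CCND2, CCND3, CDKN1A and CDKN1B. The same held for 25.6% of the 5600 genes with such a cluster. The share was 96.3% in CDK6 and 93.7% in CCND1. CDK1 was the exception with 24.1%, because 82 of its 108 tags were in clusters labelled as both 3'UTR and intron. The median share was 100% over the 7 genes and 69.8% over the 5600 genes.

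Per kb of reference sequence, the 3'UTR held more tags than the coding sequence in 7 of the 7 genes, as it did in 87.5% of 4707 genes. In 5 of the 7, no cluster of at least 10 tags was labelled as CDS alone. The set did not stand apart from other genes by this count. CDK6 had 462 tags per kb of 3'UTR and 49.9 per kb of coding sequence. The ratio was 6.99 in replicate 1 and 10.1 in replicate 2. CCND1 had 333 tags per kb of 3'UTR and 60.8 per kb of coding sequence, with a ratio of 3.95 in replicate 1 and 6.11 in replicate 2. Over 2236 genes with tags in both parts, the median ratio was 3.70. The coding values rest on few tags, 49 in CDK6 and 54 in CCND1.

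**Figure D3:**
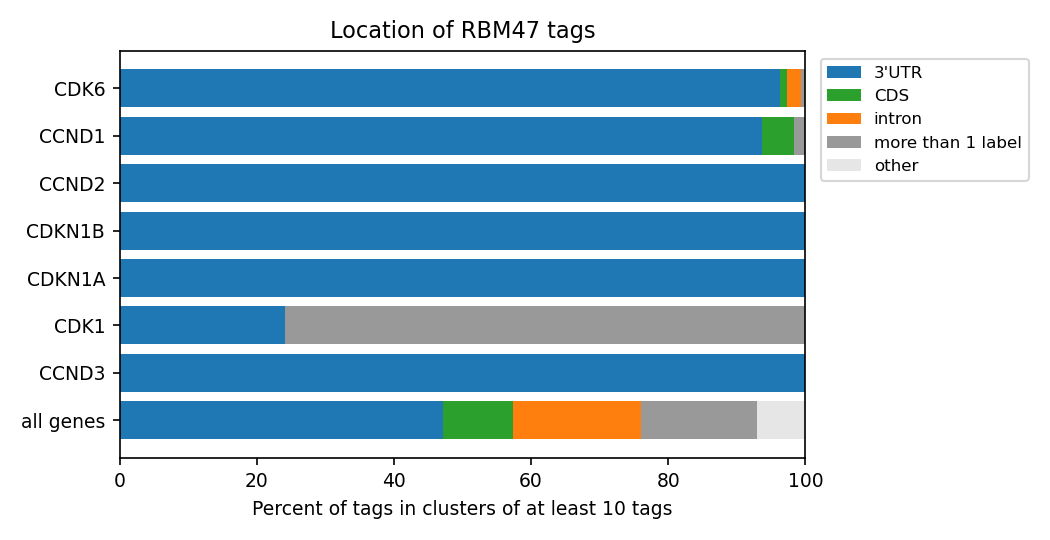
Percent of tags in clusters of at least 10 tags by location label, for the 7 genes with such clusters and for all genes in the list. The 3'UTR share is 96.3% in CDK6 and 100% in CCND2, CDKN1B, CDKN1A and CCND3, while 82 of the 108 CDK1 tags carry more than 1 label.

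The CDK6 3'UTR was covered almost without a break. CDK6 lies on the minus strand of chromosome 7, and coordinates are given for hg18, the build in the submitters' processing notes. Whether positions count from 0 or from 1 was not stated. Its 42 clusters labelled as 3'UTR alone placed it at rank 16 of 7712 genes by that number. Together with 1 cluster on the border to the coding sequence, they spanned 10276 nt and covered 94.6% of that span. The median gap between neighbours was 4 nt and the largest was 113 nt.

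The tags were spread along this stretch and no single cluster dominated. The largest cluster, at 92076696 to 92077504, held 452 tags, of which 99 were from replicate 1 and 353 from replicate 2. That was 9.22% of the tags of the gene. The next, at 92079192 to 92080015, held 366 tags, with 89 and 277 in the replicates. The third, at 92077507 to 92077878, held 341 tags, with 66 and 275, and was the densest of these 3 with 91.9 tags per 100 nt. At least 100 tags were reached by 18 CDK6 clusters.

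Of 650 genes with at least 1000 tags, 118 had a smaller share in their largest cluster than CDK6, and the median share was 20.6%. That share depends on how close neighbours are divided. When clusters closer than 50 nt were joined, the largest CDK6 region spanned 4098 nt and held 2317 tags or 47.2%, against a median of 51.2% over the same genes. After joining, the CDK6 share was close to that median.

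Agreement of the libraries along a gene was described by rank correlation over its clusters. Across the 42 clusters, Spearman's rho between replicate 1 and replicate 2 tags was 0.9497. Longer clusters held more tags, with a rho of 0.927 between length and total. Per nt of cluster the rho between the libraries was 0.742. The clusters come from a single gene and are not independent. The weak clusters in CDK6 introns, described further on, gave a rho of -0.07 over 38 clusters and 0.10 per nt. Their median was 6 tags, close to the minimum of 5 tags by which clusters were listed. At a fixed small total, more tags in either replicate mean fewer in the other. This rho therefore cannot show whether the libraries shared an order, and it is not comparable with that of the 3'UTR clusters.

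**Figure D4:**
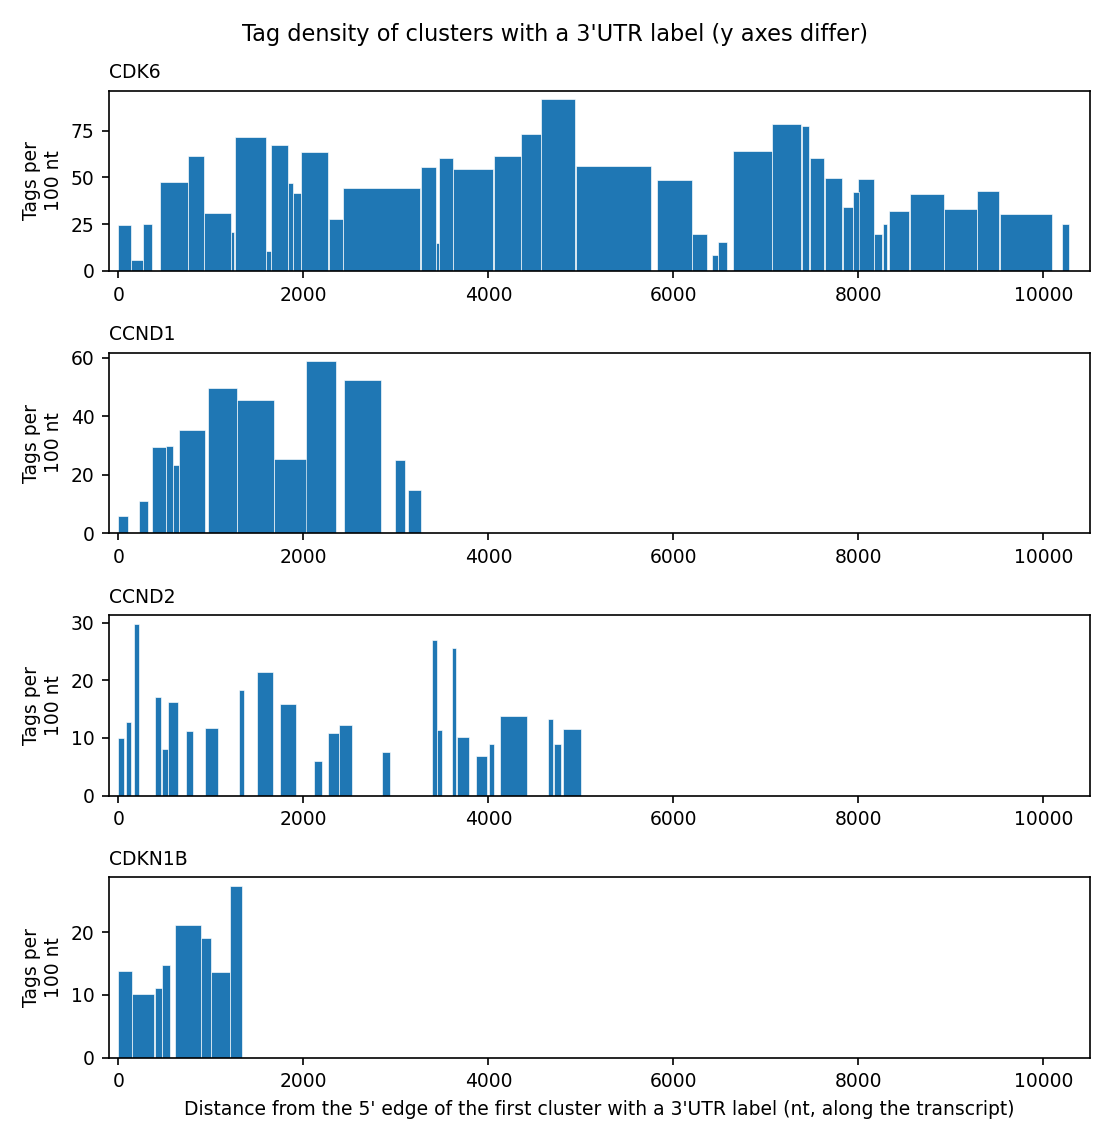
Tags per 100 nt in each cluster with a 3'UTR label, against the distance in nt along the transcript from the first such cluster, for CDK6, CCND1, CCND2 and CDKN1B, with a y axis of its own for each gene. Bars are as wide as the clusters. CDK6 is covered over 94.6% of 10276 nt, CCND1 over 85.4% of 3275 nt, and CCND2 over 50.4% of 4997 nt.

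Introns of CDK6 held many weak clusters. There were 38 of them between 92093603 and 92296954, a stretch of 203351 nt, with 5 to 21 tags each and a median of 6. They summed to 276 tags, 63 in replicate 1 and 214 in replicate 2. Only 8 reached 10 tags. The median over all intron clusters in the list was 7 tags, so the CDK6 intron clusters were of common size. CDK6 coding clusters were also small, with 5 to 20 tags in 4 clusters.

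Among genes with 0.5 to 2 times its tags, 192 in all, those closest to CDK6 in the distribution of tags over location labels were NUCKS1, YOD1 and BPNT2. Likeness was the sum over labels of the absolute differences in percent of tags, from the totals of both libraries. It was 4.16 percentage points for NUCKS1, 5.68 for YOD1 and 6.23 for BPNT2. Their 3'UTR shares were 97.7%, 96.2% and 95.2%. They had fewer tags than CDK6, with 2491, 3020 and 2915 against 4905. They also had fewer clusters of at least 10 tags, with 20, 22 and 28 against 49.

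CCND1, which lies on the plus strand of chromosome 11, showed tags in every part of the mRNA. A cluster at 69165164 to 69165272, labelled as 5'UTR and CDS, held 18 tags, with 4 in replicate 1 and 14 in replicate 2. Of 3 coding clusters, the first held 17 tags, the next 23 and the last 14. The 3'UTR followed with 12 clusters and 1063 tags. No intron cluster was listed for CCND1.

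Within the CCND1 3'UTR the densest clusters lay between sparser ones at either end. The cluster on the border of coding sequence and 3'UTR held 6 tags, and the next, at 69175371 to 69175462, held 10. The largest cluster lay at 69177590 to 69177987 with 208 tags, 41 in replicate 1 and 168 in replicate 2. It was followed only by clusters of 28 and 22 tags. At least 100 tags were reached by 5 clusters, all between 69175800 and 69177987. The largest cluster held 18.3% of the tags of the gene, and the largest region after joining held 795 tags over 1985 nt or 70.04%. Across the 12 clusters, the rho between the libraries was 0.877 and per nt it was 0.741.

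CCND2, on the plus strand of chromosome 12, had a broad and thin pattern. All 25 of its clusters were labelled as 3'UTR alone, which placed it at rank 126 of 7712 genes by that number. They held 5 to 40 tags each with a median of 12, covered 50.4% of a span of 4997 nt, and left a largest gap of 459 nt. The largest, at 4283728 to 4284017, had 7 tags in replicate 1 and 33 in replicate 2. In CCND2, 14 clusters reached 10 tags. Over its 25 clusters the rho between the libraries was 0.46, and per nt it was 0.11. Many of these clusters were close to the minimum of 5 tags, where more tags in either replicate mean fewer in the other. The rho may therefore understate how far the libraries shared an order. With so few tags, the heights of single CCND2 clusters were poorly determined. CCND2 thus had more 3'UTR clusters than CCND1 with fewer tags, and per kb of 3'UTR it had 50.9 tags against 333 in CCND1. The median over 4430 genes with 3'UTR tags was 55.7.

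CCND3, on the minus strand of chromosome 6, had 2 clusters in the 3'UTR with 22 and 15 tags and 3 intron clusters with 5, 5 and 8 tags. The larger 3'UTR cluster, at 42011191 to 42011317, had 5 tags in replicate 1 and 17 in replicate 2. The other had 1 and 14. With so few replicate 1 tags, the level of single CCND3 clusters was poorly determined.

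The CDK inhibitors had fewer tags than CDK6 and CCND1, and all their clusters of at least 10 tags were in the 3'UTR. Per kb of 3'UTR, CDKN1B had 148 tags and CDKN1A 96.6, above the median of 55.7 over genes with 3'UTR tags. CDKN1B, on the plus strand of chromosome 12, had 8 clusters in the 3'UTR, which covered 94.6% of a span of 1331 nt with no gap above 55 nt. That span was nearly as long as the 3'UTR of the reference transcript, which has 1342 nt. The largest, at 12765847 to 12766131, held 60 tags, 17 from replicate 1 and 43 from replicate 2. The last, at 12766441 to 12766569, held 35. A coding cluster held 5 tags.

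CDKN1A, on the plus strand of chromosome 6, had 5 clusters in the 3'UTR that covered 45.8% of 1466 nt, with gaps of up to 432 nt. The cluster farthest downstream, at 36762909 to 36763077, was the largest with 64 tags, which made up 43.2% of CDKN1A tags in clusters of at least 10. It had 11 in replicate 1 and 53 in replicate 2. The others held 32, 29, 23 and 9 tags. A cluster in the 5'UTR at 36754480 to 36754590 held 8 tags. CDKN1B had more normalised tags than CDKN1A in both libraries, and its clusters were closer together.

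CDK1, on the plus strand of chromosome 10, had 8 clusters. Coding sequence held 3 clusters with 5, 8 and 8 tags. The end of the gene held 5 clusters, with 26 tags in a 3'UTR cluster at 62223816 to 62223990 and 87 tags in 4 clusters labelled as 3'UTR and intron. The largest of these, at 62224405 to 62224607, had 6 tags in replicate 1 and 25 in replicate 2.

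Beyond the last CDK1 cluster, 5 clusters on the same strand within 10 kb were labelled as downstream of a gene, with 5 to 13 tags each and 38 tags in all. The nearest began 24 nt after it. They carry no gene symbol and were not counted for CDK1. No such cluster was found within 10 kb after any of the other 7 genes with clusters. CCNB1, on the plus strand of chromosome 5, had its single cluster at 68509187 to 68509246 on the border of coding sequence and 3'UTR, with 1 tag in replicate 1 and 5 in replicate 2.

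The split of tags between the libraries was tested for each cluster against the replicate 1 share of 22.3% over all clusters. By the two-sided exact binomial test with Benjamini-Hochberg adjustment over all 233546 clusters, 0 of the 156 clusters of the set differed, against 0.0111% of all clusters. At an unadjusted p under 0.05 there were 9 of 156 or 5.77%, against 3.04% of all clusters, and the beta-binomial test also called 0. The lowest adjusted p in this exact test was 0.58, for the CDK6 cluster at 92078395 to 92078831 with 30 tags in replicate 1 and 207 in replicate 2.

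Summed per gene, CDK6 was the only gene of the set past the threshold in the same exact binomial test over 7712 genes, with an adjusted p of 0.0447, against 1.7% of all genes. Its replicate 1 share was 20.3% (Wilson 95% interval 19.2 to 21.4). CCND1 had a share of 18.96% (16.8 to 21.3), with an adjusted p of 0.189 in the exact test. The CDK6 difference was small, and with the spread between libraries taken into account in a beta-binomial test its adjusted p was 1. These tests compare 2 libraries and not conditions.

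**Figure D5:**
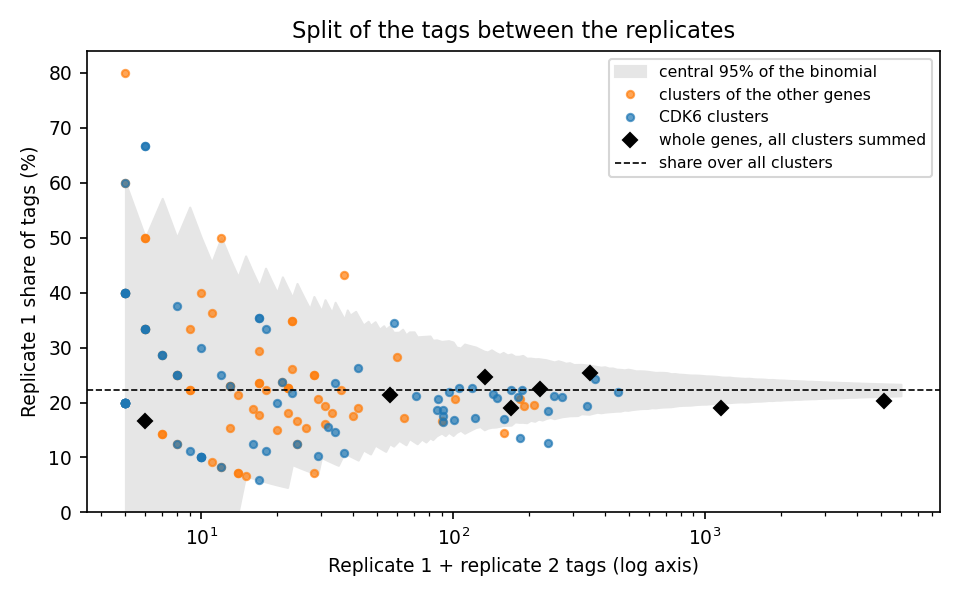
Replicate 1 share of tags in percent against the tags of both replicates on a log axis, for the 156 clusters of the set and for its 8 genes as a whole. The grey band is the central 95% of a binomial with the overall share of 22.3%. CDK6 as a whole lies at 20.3%.

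To place the set among other cell cycle regulators, 66 further genes were listed by role. Of these 66 genes, 37 had a cluster, a larger share than the 37.7% of 18922 protein-coding genes. Whether this goes with the abundance of these mRNAs was not tested. Among the 37, 17 had more than 100 tags. The 17 genes were 45.9% of the 37, near the 39.9% over all genes with a cluster. In replicate 1 alone the number was 1, and no share over all genes is given for that setting. Of 17 further cyclins, 11 had a cluster and 9 were above 100 tags, namely CCNI, CCNG1, CCNT2, CCNG2, CCNY, CCNC, CCNL1, CCNT1 and CCNH. CCNA2 had 90 tags and CCNK 82, while CCNA1, CCNB2, CCNB3, CCNE1, CCNF and CCNL2 had no cluster. Of 17 further CDKs, 9 had a cluster and 3 were above 100 tags, namely CDK17, CDK13 and CDK12. Of 10 E2F and DP factors, 7 had a cluster and 2 were above 100 tags. For 8 genes listed as CDK subunits and ubiquitin ligase factors the numbers were 3 and 2. The symbol CCND1BP1, counted among these 8 and the 66, matched no reference gene, so its lack of a cluster is not informative. All 3 pocket proteins had a cluster and 1 was above 100 tags, namely RB1 with 152. These groups are too small to be set against the shares over all genes. None of the 6 further CDK inhibitors had a cluster of at least 10 tags. The median 3'UTR share was 65.4% over the 29 genes of this list with such a cluster, close to the 69.8% over all genes.

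The 5 further genes with the most tags were FBXW7 with 1285, CDC27 with 903, E2F7 with 847, CCNI with 702 and CCNG1 with 695. All were below CDK6, and by these totals FBXW7 alone exceeded CCND1. In normalised tags over all clusters, CDC27 had 236 in replicate 1 and 248 in replicate 2. E2F7 had 224 and 223, and CDK17 had 226 and 223. CCND1 had 219 and 268, so CDC27, E2F7 and CDK17 cannot be put in order with CCND1. FBXW7, a ubiquitin ligase subunit that marks cyclin E for degradation, had 99.1% of its tags in introns, against 2.08% in CDK6. CDC27, a subunit of the anaphase-promoting complex, had 65.4% of its tags in 3'UTRs. E2F7, a repressor of E2F targets, had 52.8%, CCNG1 55.4% and CCNI 29.3%. Per kb of transcript without introns, FBXW7 had 2.13 tags, CCNG1 254 and CCNI 246, each below the 268 of CCND1 and the 412 of CDK6.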

How the data were processed

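HITS-CLIP of Flag-RBM47 was carried out by the authors in 2 replicates of 1 group. Per the labels and methods, RNA fragments were tailed with poly(A) and reverse transcribed with primers that held a degenerate stretch and an index for each replicate. Novoalign and hg18 stand in the submitters' processing notes, and further settings are not given in the sources used here. The deposited values are counts of unique tags per cluster, with a column for each replicate and a total. In 34 of the 156 clusters both replicates together exceeded the total, by 64 tags in all. That was 21.8% of these clusters, against 13.2% of all clusters. The table lists only clusters past its minimums, so its column sums are not library depths.

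Gene tags are the authors' total summed over clusters of at least 10 tags, or over all clusters where stated. Normalised tags use the replicate columns. The study treats sites found in both replicates as biologically reproducible, but the sources do not say whether separate cultures were used, so part of the SD may be technical. Intervals cover counting error only. A cluster with several location labels was kept as a class of its own. The split between replicates was tested with a two-sided exact binomial test over all clusters or genes, adjusted by Benjamini-Hochberg at 0.05. The exact test was tried on simulated splits with and without changes. The beta-binomial test was tried only without changes and at a larger spread than was fitted here. Its ability to call a true difference was therefore not tested. Python 3.11.15 with scipy 1.17.1 and pandas 2.3.3 was used. All 10 genes are named, with the largest cluster of each, the 5 further genes with the most tags, and the 3 genes with location labels most like CDK6. The further cyclins, the further CDKs above 100 tags and RB1 are also named. Other clusters were named after their values were seen. Genes and lists were chosen with earlier results of these data known. Entrez IDs were matched to RefSeq symbols, and GENCODE gave lengths only. No genome of the files' build was used, so no sequence is shown. Alternatives were the tag minimum, the counting of labels, a single library, the length scale, the expected share and a beta-binomial test.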

Additional observations from a re-analysis of the deposited data

How the results depend on the processing

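Among 41 alternatives, 15 changed a value by less than the SD between replicates (a count by less than 1.5 times), 26 changed it by more and 0 turned a direction. With no tag minimum, 91.8% of tags were in 3'UTRs, a lead over introns of 87.7 percentage points, against 95.05% and 93.5 from the totals at 10 tags. At a minimum of 30 tags the set had 5883 tags, 2 genes (CDK6 and CCND1) above 100 tags, a 3'UTR share of 98.9% with the same value as its lead over introns, 98.9 points, and a CDK6 to CCND1 ratio of 4.78, against 4.32. Counting every label that includes the region gave 96.7% and 94.02 points, counting each cluster once 80.2% and 71.9 points, and the mean over genes 87.7% and 87.4 points. By density, 27 further cell cycle genes exceeded 100 tags per kb of cluster, against 17 by tags per gene, and the ratio of CDK6 to CCND1 was 1.31 per kb of clusters. With the median share over genes as the reference for the split, 2 genes of the set differed between the libraries, and with the beta-binomial test 0 did.

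With each replicate left out, the set had 1127 to 5433 tags and 2 to 5 genes above 100 tags. The 3'UTR share ranged from 95.95% to 100%, its lead from 95.01 to 100 points, the CDK6 ratio from 4.21 to 5.19, and further cell cycle genes above 100 tags from 1 to 17. The low counts were those of replicate 1 alone, the smaller library, in which a fixed minimum of 10 tags is stricter by construction. No paired analysis was possible because both libraries belong to 1 group. Replicate 1 had a median of 2 tags per cluster, so single clusters are imprecise.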
